A study of Mus musculus with 8 samples.

Results

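The genes described here are 49 genes of hepatic stellate cells and of the extracellular matrix (collagens, stellate and fibroblast markers, matrix-remodelling enzymes and the TGF-beta pathway), taken by symbol from the 52551 rows of the count files. All 49 were found, and 28 of them had enough reads to be tested among the 8669 genes tested. The livers came from male C57BL/6 mice, 6 weeks of age, of 2 genotypes. PiZ/Chop-/- mice (4 libraries) carry PiZ, a transgene for the misfolding Z form of human alpha-1 antitrypsin, and lack Chop, the gene Ddit3, which encodes a transcription factor of the endoplasmic reticulum stress response. PiZ mice (4 libraries) carry the same transgene with Chop intact, so both groups carry the transgene, and no liver without it was analysed here. The sources used here do not name the promoter of the transgene or the tissues in which Chop is missing. The libraries were made with QuantSeq, which reads the 3′ end of each messenger RNA once, and levels are given in CPM, read counts scaled to library size. That size was summed over the tested genes and multiplied by the TMM scaling factor of the fit. Whether the 4 libraries of a group are 4 mice is not in the labels, so the p-values speak only of the spread among the libraries, which may be technical.

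Stellate cells lie between hepatocytes and the sinusoidal endothelium. In the resting liver they store vitamin A as retinyl ester, which the enzyme LRAT makes, and they express reelin and desmin. In injured liver they lose the retinoid stores and turn into contractile myofibroblasts that express smooth muscle actin (Acta2) and transgelin (Tagln) and lay down fibrillar collagen, a switch that TGF-beta and PDGF drive. Patients with the Z form of alpha-1 antitrypsin can develop liver fibrosis, and PiZ mice are used as a model of that liver disease. Matrix is not made by stellate cells alone: plasma fibronectin comes from hepatocytes, and basement membrane collagen also from endothelium.

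The 2 chains of type IV collagen are shown first, because their genes share a promoter region and had nearly the same fold change. Col4a1 and Col4a2 lie head to head on chromosome 8, on the minus and plus strands. Their annotated starts in RefSeq (GRCm38.p6) are 21 bases apart, and the gene models overlap by 22 bases in GENCODE M21 (mm10). The windows from 250 bases before to 50 bases after each start overlap by 78 bases, which are identical once one of them is reversed. The window of Col1a2, the partner of Col1a1 in type I collagen, is given beside them. The windows are chr8:11312777-11313076 (minus strand) for Col4a1, chr8:11312555-11312854 (plus strand) for Col4a2 and chr6:4505368-4505667 (plus strand) for Col1a2. Capitals mark every match, on either strand, to one of 6 motifs: TGCAAT (core of the site of CHOP with C/EBP), TGATGNAAT (C/EBP-ATF response element), CCAAT (bound by NF-Y), CAGAC (SMAD core), CCNCGCCC (SP and KLF factors) and TATAAA.
Col4a1: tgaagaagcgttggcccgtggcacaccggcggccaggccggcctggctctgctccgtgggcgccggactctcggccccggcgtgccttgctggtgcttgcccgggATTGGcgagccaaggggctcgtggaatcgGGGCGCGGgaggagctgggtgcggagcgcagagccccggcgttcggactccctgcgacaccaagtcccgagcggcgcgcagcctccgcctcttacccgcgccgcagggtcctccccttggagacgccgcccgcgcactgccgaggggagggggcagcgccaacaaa
Col4a2: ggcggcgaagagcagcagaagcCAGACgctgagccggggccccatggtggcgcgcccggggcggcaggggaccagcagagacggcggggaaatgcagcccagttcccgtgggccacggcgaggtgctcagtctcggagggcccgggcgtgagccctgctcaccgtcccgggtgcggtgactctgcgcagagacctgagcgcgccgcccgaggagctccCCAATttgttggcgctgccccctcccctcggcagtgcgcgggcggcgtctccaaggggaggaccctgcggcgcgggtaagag
Col1a2: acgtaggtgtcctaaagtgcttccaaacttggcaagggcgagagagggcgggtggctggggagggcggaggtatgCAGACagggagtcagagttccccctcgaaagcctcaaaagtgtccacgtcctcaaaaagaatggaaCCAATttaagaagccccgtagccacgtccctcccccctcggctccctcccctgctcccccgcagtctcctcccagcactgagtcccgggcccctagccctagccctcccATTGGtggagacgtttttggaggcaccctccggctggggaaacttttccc

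In these 3 windows the capitals are a CCAAT and a CCNCGCCC match in Col4a1, a CAGAC and a CCAAT match in Col4a2, and a CAGAC and 2 CCAAT matches in Col1a2. RefSeq windows were found for 32 of the 49 genes, 38 windows in all. CCAAT stood in 15 of the 38 (39.5%), against 37.4% of all 32851 windows of the same length. CAGAC stood in 22 (57.9%), against 49.6%, and CCNCGCCC in 12 (31.6%), against 24%. TATAAA was in 4 (10.5%), against 13.6%. TGCAAT was in 2 (5.26%), in the windows of Pdgfra and Fbln5, against 8.4%, and TGATGNAAT in 1 (2.63%), that of Fbln5, against 0.965%. The TGCAAT and TGATGNAAT matches of Fbln5 overlap. These are matches of letters and not measured binding sites.

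The labels held for the deleted gene: Ddit3 had 8, 3, 5 and 9 counts in PiZ/Chop-/- libraries 1 to 4, against 311, 290, 595 and 180 in PiZ libraries 1 to 4. Total counts per library ran from 1850275 to 2375907 in PiZ/Chop-/- and from 1650260 to 3064385 in PiZ, and the 49 genes took 0.199% to 0.292% of the reads in PiZ/Chop-/- libraries and 0.209% to 0.339% in PiZ libraries. Human SERPINA1, the transgene, stood at 637, 554, 576 and 712 CPM in PiZ/Chop-/- libraries 1 to 4, against 1568, 950.2, 1441 and 1845 CPM in PiZ libraries 1 to 4, without overlap. It was lower in PiZ/Chop-/- by a log2 fold change of -1.23 ± 0.22 (SE), with an edgeR adjusted p of 0.00873, and the part of this difference in the values below was not tested. All 24 hepatocyte markers were detected, with summed levels of 104226 to 114515 CPM in PiZ/Chop-/- libraries and 103776 to 117679 CPM in PiZ libraries. PiZ library 4 had the lowest mean correlation with its own group (0.914, against 0.931 to 0.951 for the other 7).

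None of the 28 tested genes passed the threshold of 0.05 after adjustment over all 8669 genes (edgeR quasi-likelihood test, Benjamini-Hochberg), where the threshold was passed by 1.03% of all tested genes. Before adjustment 7 of the 28 had p below 0.05, and all 7 had lower levels in PiZ/Chop-/- livers: Col1a1, Col6a2, Col6a3, Col4a1, Col4a2, Eln and Vim. Of all tested genes 13.1% had an unadjusted p below 0.05, and 6.85% did with a lower level in PiZ/Chop-/-. Leaving out PiZ/Chop-/- library 1 or PiZ library 3 changed the count of 7 to 2, leaving out PiZ/Chop-/- library 2 made it 4 and leaving out PiZ library 2 made it 3. Those fits also have fewer libraries, and 28 to 30 of the 49 genes were tested in them. By limma-voom the count was 6, with none past the adjusted threshold. By DESeq2, which gave all 49 genes a p-value, it was 5, with Col1a1 past the adjusted threshold. DESeq2 was run on all genes with reads, with its own default filtering before adjustment. Of the 28 log2 fold changes (PiZ/Chop-/- over PiZ), 22 were below 0, and their median was -0.34. Over all tested genes 50.2% were below 0, with a median of -0.0016. With RLE or upper quartile scaling 21 of the 28 were below 0, and with library size as the only scaling 23 were.

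Groups did not overlap in CPM for 2 of the 28, Col1a1 and Col6a2, each with every PiZ/Chop-/- library below every PiZ library. Over all tested genes the groups did not overlap in 7.88%, and in 4.22% every PiZ/Chop-/- library was the lower. In bulk liver, fewer cells of a type and less RNA per cell cannot be told apart, and this touches every level below.

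**Figure D1:**
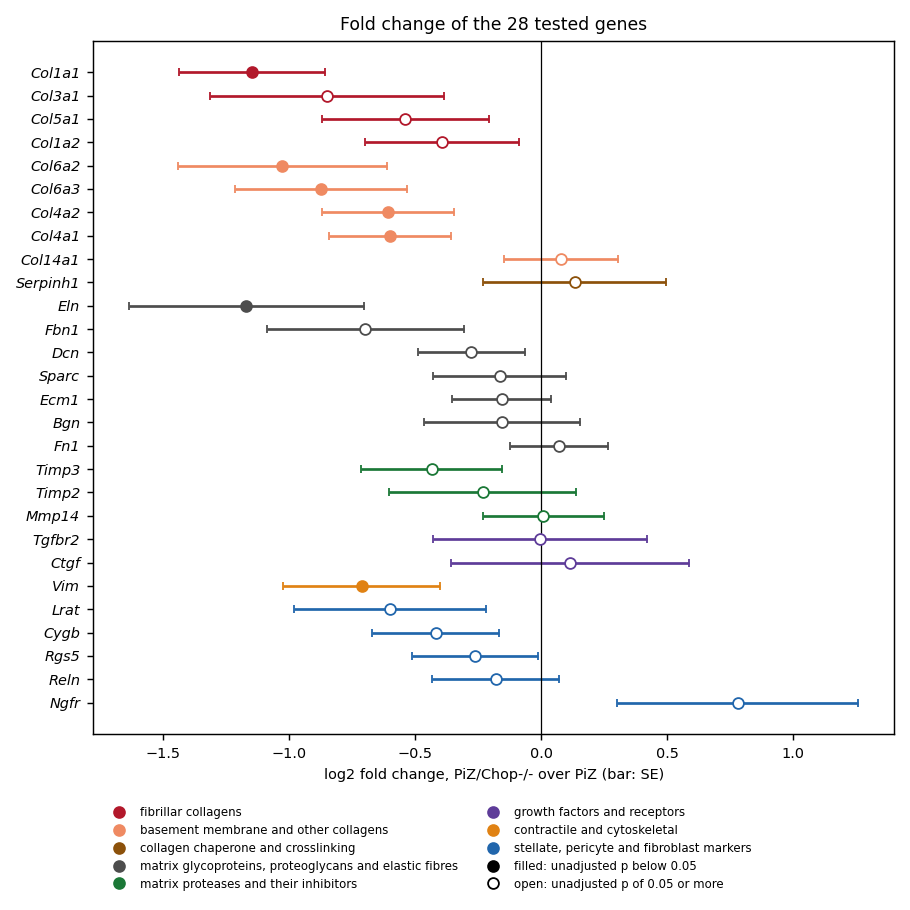
Log2 fold change, PiZ/Chop-/- over PiZ, of the 28 tested genes (points, with SE as bars), grouped by role and sorted within each group. Filled points have an unadjusted p below 0.05. The 7 filled points all lie left of 0, and 22 of the 28 points do.

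The fibrillar collagens, which form the tensile fibres of scar, held the gene with the lowest adjusted p of the 28. Col1a1, the chain of type I collagen encoded on the plus strand of chromosome 11 (94936224 to 94953042, mm10), stood at 11.2, 15.5, 26.3 and 29.8 CPM in PiZ/Chop-/- libraries 1 to 4, against 44.9, 52, 53.4 and 33.7 CPM in PiZ libraries 1 to 4. All 4 PiZ/Chop-/- libraries were below all 4 PiZ libraries, with PiZ/Chop-/- libraries 1 and 2 the lowest. It averaged 20.7 ± 8.8 CPM over the PiZ/Chop-/- libraries and 46 ± 9.0 CPM over the PiZ libraries (SD, n = 4 libraries each). On the log2 scale Col1a1 came to -1.15 ± 0.29 (SE) for PiZ/Chop-/- over PiZ (edgeR adjusted p = 0.0788). That is a 2.22-fold lower level in PiZ/Chop-/-. Over the 19 alternative fits its log2 fold change ran from -1.38 to -0.94 and its adjusted p from 0.00192 to 0.20. It passed with DESeq2 (at an adjusted p of 0.0294), with no filter on low counts (0.00192) and without PiZ library 4 (0.0345), the lowest PiZ library for Col1a1.

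Col1a2, the second chain of type I collagen (chromosome 6), stood at 12.1, 17.2, 33.8 and 23.3 CPM in PiZ/Chop-/- libraries 1 to 4, against 27.1, 31.1, 36.3 and 18.5 CPM in PiZ libraries 1 to 4. The groups overlapped, PiZ/Chop-/- library 3 lying above 3 of the 4 PiZ libraries. For Col1a2 the fold change was -0.39 ± 0.31 (SE) in log2 units, and edgeR put the adjusted p at 0.621. Both chains are needed for the usual type I collagen fibre, and their shares were therefore set side by side after their values were seen, with no test. Col1a1 made up 48%, 47.4%, 43.8% and 56.1% of the summed Col1a1 and Col1a2 counts in PiZ/Chop-/- libraries 1 to 4, and 62.4%, 62.6%, 59.5% and 64.5% in PiZ libraries 1 to 4. The shares of the 2 groups did not overlap, while the 95% Wilson intervals of single libraries, which cover counting error only, reached from 34.8% to 64.9% in PiZ/Chop-/- and from 53.4% to 72.9% in PiZ.

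Col3a1, the chain of type III collagen (chromosome 1), stood at 9.29, 7.47, 25.8 and 30.3 CPM in PiZ/Chop-/- libraries 1 to 4, against 13.5, 38.4, 35.4 and 44.1 CPM in PiZ libraries 1 to 4. PiZ/Chop-/- libraries 1 and 2 and PiZ library 1 were low, and the groups overlapped. With a log2 fold change of -0.85 ± 0.46 (SE), Col3a1 had an edgeR adjusted p of 0.471. Col5a1, a chain of type V collagen, which sets the width of type I fibres, ranged over 5.11 to 8.62 CPM in PiZ/Chop-/- libraries and 7.59 to 11.7 CPM in PiZ libraries, and the log2 fold change was -0.54 ± 0.33 (SE; edgeR adjusted p = 0.516). Its partner Col5a2, which lies 24.6 kb from Col3a1, had 1, 0, 6 and 7 counts in PiZ/Chop-/- libraries 1 to 4, against 2, 8, 10 and 7 counts in PiZ libraries 1 to 4, too few to be tested. The median log2 fold change of the 4 tested fibrillar collagen genes was -0.69.

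**Figure D2:**
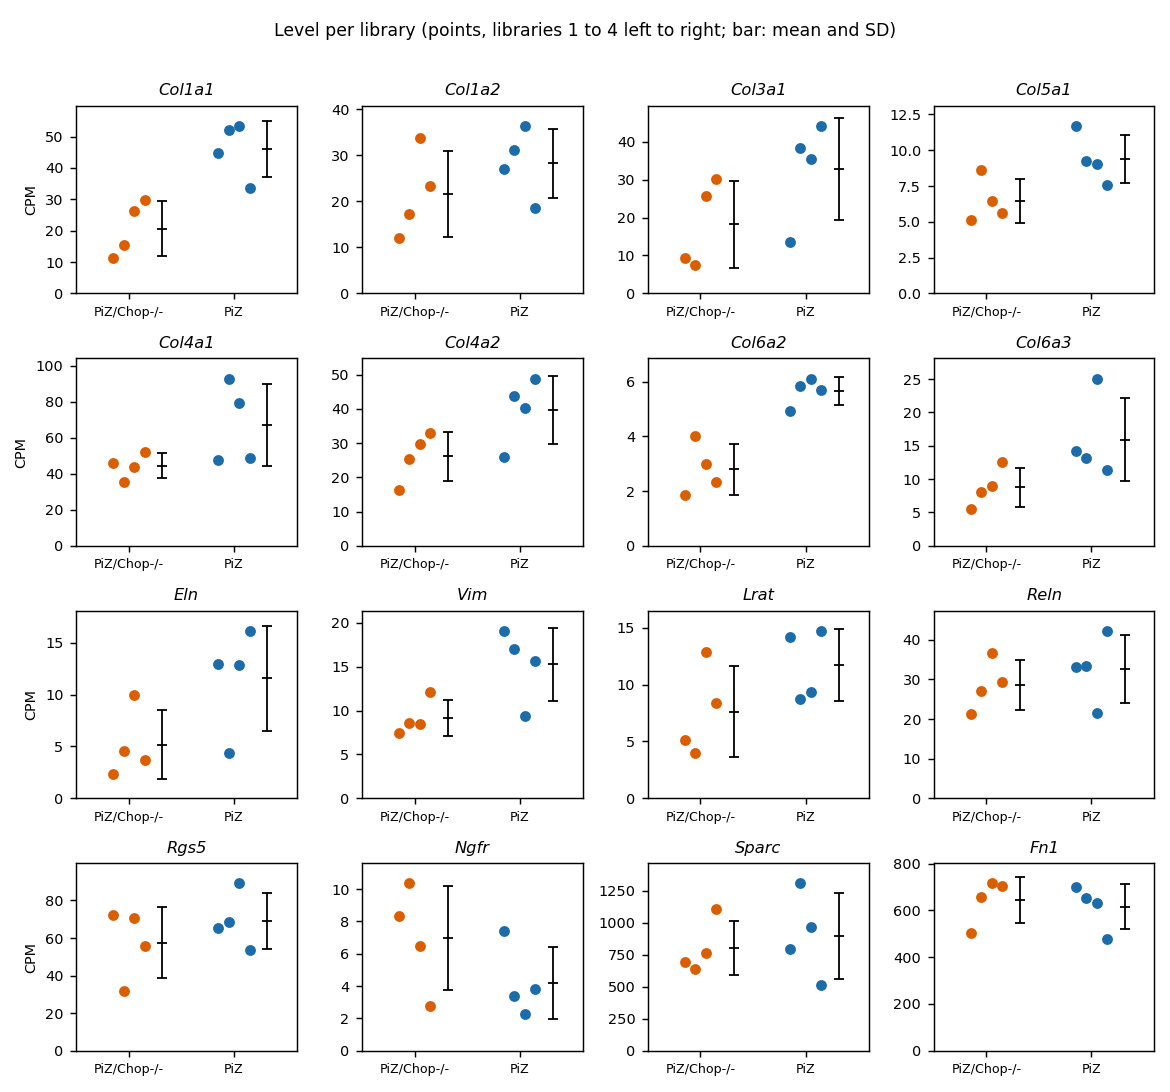
Level in CPM (vertical axes, each starting at 0) of 16 genes in the 4 PiZ/Chop-/- libraries (orange, left) and the 4 PiZ libraries (blue, right), with the mean and SD beside each group. Only Col1a1 and Col6a2 show groups that do not overlap. Sparc and Fn1 have largely overlapping groups.

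Among the other collagens, 4 of the 5 tested genes had an unadjusted p below 0.05, and none passed after adjustment. Type IV collagen is the network of basement membranes. Col4a1 (chromosome 8, 11198423 to 11312826) stood at 46, 35.6, 43.7 and 52.2 CPM in PiZ/Chop-/- libraries 1 to 4, against 47.4, 92.8, 79.4 and 48.9 CPM in PiZ libraries 1 to 4. PiZ libraries 2 and 3 were high, and PiZ libraries 1 and 4 lay within the range of the PiZ/Chop-/- libraries. The log2 fold change of Col4a1 was -0.60 ± 0.24 (SE), and its adjusted p by edgeR 0.304. It passed without PiZ libraries 1 and 4 together (-0.95, adjusted p = 0.0402). These are the 2 lowest PiZ libraries for Col4a1, so leaving them out widens the difference by itself. Col4a2 (chromosome 8, 11312805 to 11449287), across the shared promoter region, stood at 16.3, 25.3, 29.8 and 33.1 CPM in PiZ/Chop-/- libraries 1 to 4, against 25.8, 43.7, 40.2 and 48.9 CPM in PiZ libraries 1 to 4. edgeR gave Col4a2 a log2 fold change of -0.61 ± 0.26 (SE), at an adjusted p of 0.341. The fold changes of the pair were close, but the high libraries were not all the same: PiZ library 4 was the highest for Col4a2 and the second lowest of its group for Col4a1. Col4a1 made up 73.9%, 58.5%, 59.5% and 61.2% of the counts of the pair in PiZ/Chop-/- libraries 1 to 4, and 64.7%, 68%, 66.4% and 50% in PiZ libraries 1 to 4, with overlapping groups.

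Type VI collagen forms beaded filaments around cells. Col6a2 (chromosome 10, 76595762 to 76623630, minus strand) stood at 1.86, 4.02, 2.98 and 2.33 CPM in PiZ/Chop-/- libraries 1 to 4, against 4.92, 5.83, 6.11 and 5.69 CPM in PiZ libraries 1 to 4. Every PiZ/Chop-/- library was below every PiZ library, at low levels: the counts were 4, 7, 6 and 5 in PiZ/Chop-/- libraries 1 to 4, against 8, 12, 19 and 12 in PiZ libraries 1 to 4. On the log2 scale Col6a2 came to -1.03 ± 0.42 (SE) for PiZ/Chop-/- over PiZ (edgeR adjusted p = 0.305). Col6a3, the third chain, stood at 5.58, 8.05, 8.94 and 12.6 CPM in PiZ/Chop-/- libraries 1 to 4, against 14.1, 13.1, 25.1 and 11.4 CPM in PiZ libraries 1 to 4, with PiZ library 3 the highest and an overlap between PiZ/Chop-/- library 4 and PiZ library 4. For Col6a3 the fold change was -0.87 ± 0.34 (SE) in log2 units, and edgeR put the adjusted p at 0.291. Col6a1, 85.2 kb from Col6a2, had 9, 0, 7 and 7 counts in PiZ/Chop-/- libraries 1 to 4, against 8, 5, 20 and 2 counts in PiZ libraries 1 to 4, too few to be tested. Col14a1, a collagen that binds to the surface of fibrils, ranged over 29.7 to 50.1 CPM in PiZ/Chop-/- libraries and 30.2 to 46.7 CPM in PiZ libraries, and the log2 fold change was 0.077 ± 0.23 (SE; edgeR adjusted p = 0.922). Of the 49 genes, 6 lie on chromosome 10 with Ddit3, the nearest of them Lum and Dcn at 29.7 and 29.8 Mb from it and Col6a2 at 50.7 Mb.

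Genes that fold and crosslink collagen were mostly at low counts. Serpinh1, the collagen chaperone HSP47 of the endoplasmic reticulum, stood at 25.1, 12.6, 17.4 and 7.92 CPM in PiZ/Chop-/- libraries 1 to 4, against 19.7, 10.2, 9.65 and 19 CPM in PiZ libraries 1 to 4. Both groups held high and low libraries. With a log2 fold change of 0.13 ± 0.36 (SE), Serpinh1 had an edgeR adjusted p of 0.914. The sign turned without PiZ/Chop-/- library 1 (-0.19) or PiZ library 3 (-0.037). The lysyl oxidases, which crosslink collagen and elastin, were too low to be tested: Lox had 7 counts over the 4 PiZ/Chop-/- libraries and 17 over the 4 PiZ libraries, Loxl1 13 and 14, and Loxl2 19 and 28.

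Of 7 tested glycoprotein, proteoglycan and elastic fibre genes, 6 had a log2 fold change below 0 and 1 of them, Eln, an unadjusted p below 0.05. Eln encodes elastin, the core of elastic fibres, and stood at 2.32, 4.6, 9.93 and 3.73 CPM in PiZ/Chop-/- libraries 1 to 4, against 12.9, 4.37, 12.9 and 16.1 CPM in PiZ libraries 1 to 4. PiZ/Chop-/- library 3 was high and PiZ library 2 low for their groups, so that the groups overlapped. The log2 fold change of Eln was -1.17 ± 0.46 (SE), and its adjusted p by edgeR 0.30. Fbn1, which encodes fibrillin 1, the scaffold on which elastin is deposited, stood at 2.79, 4.02, 3.97 and 5.59 CPM in PiZ/Chop-/- libraries 1 to 4, against 8.0, 8.26, 5.14 and 5.69 CPM in PiZ libraries 1 to 4, with overlap between PiZ/Chop-/- library 4 and PiZ library 3. edgeR gave Fbn1 a log2 fold change of -0.70 ± 0.39 (SE), at an adjusted p of 0.466.

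Dcn, decorin, a proteoglycan that binds collagen and TGF-beta, stood at 121, 159.8, 194 and 195 CPM in PiZ/Chop-/- libraries 1 to 4, against 264, 211, 190.0 and 148 CPM in PiZ libraries 1 to 4. PiZ library 4 lay under PiZ/Chop-/- libraries 2, 3 and 4, so the groups overlapped. On the log2 scale Dcn came to -0.28 ± 0.21 (SE) for PiZ/Chop-/- over PiZ (edgeR adjusted p = 0.616). Fn1, fibronectin, stood at 503, 659, 715 and 705 CPM in PiZ/Chop-/- libraries 1 to 4, against 699, 652, 633 and 476 CPM in PiZ libraries 1 to 4, with the lowest value in PiZ library 4 and the next lowest in PiZ/Chop-/- library 1. For Fn1 the fold change was 0.07 ± 0.19 (SE) in log2 units, and edgeR put the adjusted p at 0.915. Without PiZ library 4 the value was -0.018. Ecm1, a secreted protein that keeps TGF-beta latent in mouse liver, stood at 59, 78.2, 54.6 and 75 CPM in PiZ/Chop-/- libraries 1 to 4, against 63.4, 90.8, 70.7 and 72.1 CPM in PiZ libraries 1 to 4. PiZ/Chop-/- library 3 was the lowest and PiZ library 2 the highest, with the rest mixed. With a log2 fold change of -0.16 ± 0.20 (SE), Ecm1 had an edgeR adjusted p of 0.786. Sparc, which binds collagen in the matrix, ranged over 635 to 1105 CPM in PiZ/Chop-/- libraries and 509.7 to 1306 CPM in PiZ libraries (log2 fold change -0.16), and Bgn, biglycan, over 206 to 365 CPM in PiZ/Chop-/- libraries and 131 to 448 CPM in PiZ libraries (log2 fold change -0.15), with adjusted p of 0.839 and 0.879 by edgeR. Lum, Fbln1, Fbln5, Postn and Thbs1 had too few reads to be tested, with 2 to 30 counts over the PiZ/Chop-/- libraries and 9 to 39 over the PiZ libraries.

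Matrix proteases and their inhibitors did not pass in either direction. Timp3, an inhibitor bound to the matrix, stood at 29.3, 28.7, 34.8 and 21 CPM in PiZ/Chop-/- libraries 1 to 4, against 28.9, 52, 49.5 and 22.3 CPM in PiZ libraries 1 to 4, where PiZ libraries 2 and 3 were above all others. The log2 fold change of Timp3 was -0.44 ± 0.28 (SE), and its adjusted p by edgeR 0.54. Timp2, which inhibits MMP2 and also helps to activate it, stood at 29.3, 67.2, 66 and 37.3 CPM in PiZ/Chop-/- libraries 1 to 4, against 72, 63.2, 75.9 and 22.8 CPM in PiZ libraries 1 to 4, with PiZ/Chop-/- libraries 1 and 4 and PiZ library 4 low. edgeR gave Timp2 a log2 fold change of -0.23 ± 0.37 (SE), at an adjusted p of 0.839. Mmp14, a membrane-bound collagenase, ranged over 38.7 to 52.3 CPM in PiZ/Chop-/- libraries and 27.1 to 59.7 CPM in PiZ libraries, and the log2 fold change was 0.0079 ± 0.24 (SE; edgeR adjusted p = 0.995). Timp1, an inhibitor known to rise with fibrosis in liver, had 0, 0, 0 and 2 counts in PiZ/Chop-/- libraries 1 to 4, against 1, 1, 4 and 0 counts in PiZ libraries 1 to 4. A count of 0 allows up to 3 counts, which is 1.39 to 1.72 CPM in the PiZ/Chop-/- libraries and 0.965 to 1.84 CPM in the PiZ libraries, and differences of Timp1 below that size were not detectable at this depth. Mmp2, a gelatinase, had 16 counts over the 4 PiZ/Chop-/- libraries and 27 over the 4 PiZ libraries.

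Growth factors and receptors were likewise close to the limit. Tgfb1, the main fibrogenic ligand, had 4, 3, 5 and 3 counts in PiZ/Chop-/- libraries 1 to 4, against 3, 6, 11 and 0 counts in PiZ libraries 1 to 4, too few to be tested. Its receptor gene Tgfbr2 stood at 5.58, 2.87, 12.4 and 8.85 CPM in PiZ/Chop-/- libraries 1 to 4, against 3.69, 8.74, 7.72 and 9.49 CPM in PiZ libraries 1 to 4, with low libraries in both groups. On the log2 scale Tgfbr2 came to -0.004 ± 0.43 (SE) for PiZ/Chop-/- over PiZ (edgeR adjusted p = 0.998). The sign turned with RLE, upper quartile or DESeq2 scaling. Ctgf, a matricellular protein induced by TGF-beta, stood at 4.65, 7.47, 11.4 and 9.32 CPM in PiZ/Chop-/- libraries 1 to 4, against 12.3, 9.72, 7.4 and 1.42 CPM in PiZ libraries 1 to 4, the lowest value being that of PiZ library 4. For Ctgf the fold change was 0.11 ± 0.47 (SE) in log2 units, and edgeR put the adjusted p at 0.946. Without PiZ library 4 the value was -0.21. Pdgfrb, the PDGF receptor of stellate cells, had 3, 4, 4 and 3 counts in PiZ/Chop-/- libraries 1 to 4, against 1, 5, 6 and 11 counts in PiZ libraries 1 to 4, and Pdgfra, its relative, 10 counts over the 4 PiZ/Chop-/- libraries and 16 over the 4 PiZ libraries. Tgfbr1 had 31 counts over the PiZ/Chop-/- libraries and 42 over the PiZ libraries, and Hgf, the hepatocyte growth factor that stellate cells supply, had 11 and 15.

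Among contractile and cytoskeletal genes, Acta2 and Tagln, which mark myofibroblasts, and Des were low. They had 0 to 10 counts per library in PiZ/Chop-/- and 1 to 17 in PiZ. Acta2, smooth muscle actin, had 3, 5, 1 and 2 counts in PiZ/Chop-/- libraries 1 to 4, against 3, 2, 17 and 4 counts in PiZ libraries 1 to 4, with 17 of its 37 counts in PiZ library 3. Tagln had 1, 0, 2 and 0 counts in PiZ/Chop-/- libraries 1 to 4, against 4, 2, 2 and 1 counts in PiZ libraries 1 to 4. Des, desmin, had 10, 3, 2 and 6 counts in PiZ/Chop-/- libraries 1 to 4, against 3, 5, 9 and 6 counts in PiZ libraries 1 to 4. None of these 3 could be tested. Vim, vimentin, an intermediate filament of mesenchymal, endothelial and blood cells, stood at 7.43, 8.62, 8.44 and 12.1 CPM in PiZ/Chop-/- libraries 1 to 4, against 19.1, 17, 9.32 and 15.7 CPM in PiZ libraries 1 to 4. PiZ library 3 lay within the range of the PiZ/Chop-/- libraries and the other 3 PiZ libraries above it. With a log2 fold change of -0.71 ± 0.31 (SE), Vim had an edgeR adjusted p of 0.343.

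Markers of stellate cells and pericytes did not pass. Lrat, the enzyme that stores vitamin A, stood at 5.11, 4.02, 12.9 and 8.38 CPM in PiZ/Chop-/- libraries 1 to 4, against 14.1, 8.74, 9.32 and 14.7 CPM in PiZ libraries 1 to 4. PiZ/Chop-/- libraries 1 and 2 were the lowest, and PiZ/Chop-/- library 3 lay among the PiZ libraries. The log2 fold change of Lrat was -0.60 ± 0.38 (SE), and its adjusted p by edgeR 0.533. Reln, reelin, stood at 21.4, 27, 36.7 and 29.3 CPM in PiZ/Chop-/- libraries 1 to 4, against 33.2, 33.5, 21.5 and 42.2 CPM in PiZ libraries 1 to 4, with the groups mixed. edgeR gave Reln a log2 fold change of -0.18 ± 0.25 (SE), at an adjusted p of 0.806. It was 0.07 without PiZ libraries 1 and 4. Cygb, cytoglobin, an oxygen-binding protein of stellate cells, stood at 27.4, 25.9, 22.8 and 33.1 CPM in PiZ/Chop-/- libraries 1 to 4, against 36.3, 50, 37.6 and 22.3 CPM in PiZ libraries 1 to 4. PiZ library 4 was the lowest of all 8. On the log2 scale Cygb came to -0.42 ± 0.25 (SE) for PiZ/Chop-/- over PiZ (edgeR adjusted p = 0.506). Ngfr, the low-affinity nerve growth factor receptor, was the gene with the most positive fold change of the 28. It stood at 8.36, 10.3, 6.45 and 2.79 CPM in PiZ/Chop-/- libraries 1 to 4, against 7.38, 3.4, 2.25 and 3.8 CPM in PiZ libraries 1 to 4, where PiZ/Chop-/- library 4 was low and PiZ library 1 high for their groups. For Ngfr the fold change was 0.78 ± 0.48 (SE) in log2 units, and edgeR put the adjusted p at 0.514. Rgs5, a pericyte regulator of G protein signalling, ranged over 31.6 to 72.5 CPM in PiZ/Chop-/- libraries and 53.6 to 89.1 CPM in PiZ libraries, and the log2 fold change was -0.26 ± 0.25 (SE; edgeR adjusted p = 0.703). Thy1, a marker of portal fibroblasts, had 4 counts over the 4 PiZ/Chop-/- libraries and 5 over the 4 PiZ libraries.

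**Figure D3:**
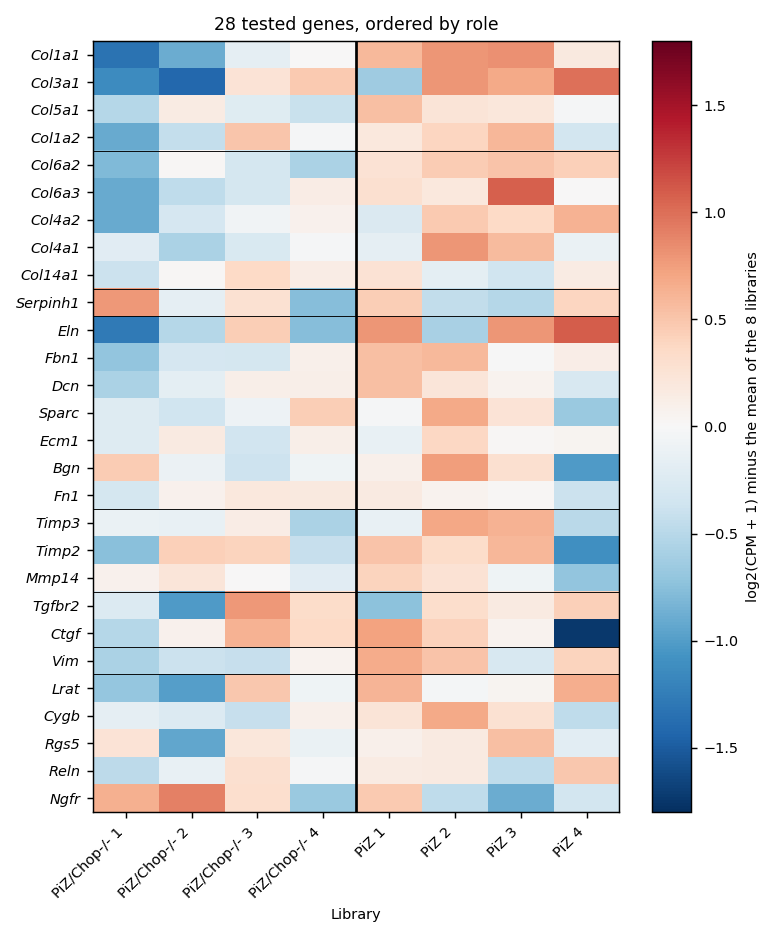
Level of the 28 tested genes (rows, ordered by role, with lines between roles) in each library (columns, PiZ/Chop-/- left and PiZ right), as log2(CPM + 1) minus the mean of the gene over the 8 libraries. Most collagen rows at the top are blue in PiZ/Chop-/- libraries 1 and 2 and red in PiZ libraries 2 and 3, and the PiZ library 4 column is blue for Ctgf, Timp2 and Bgn.

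Quiescence markers were set against activation markers. Of 6 genes taken here as quiescence markers (Lrat, Reln, Rgs5, Hgf, Ngfr and Cygb) 5 were tested, 4 were below 0 and the median log2 fold change was -0.26. That median was the value of Rgs5, a pericyte gene. The list was a choice, its genes are not all particular to resting stellate cells, and Des was on neither list. Of 20 activation markers 9 were tested, 6 were below 0 and the median was -0.39, the other 11 being too low to test. The tested ones were the 4 tested fibrillar collagen genes (Col1a1, Col1a2, Col3a1 and Col5a1) with Vim, Sparc, Mmp14, Ctgf and Serpinh1. The median was the value of Col1a2. Outside the collagens Vim (-0.71) and Sparc (-0.16) were below 0, and Mmp14 (0.0079), Ctgf (0.11) and Serpinh1 (0.13) above. The activation values are thus in large part those of the fibrillar collagens. Leaving out PiZ/Chop-/- library 1 put the activation median at -0.19 and leaving out PiZ library 3 at -0.24, while leaving out PiZ/Chop-/- library 2 put the quiescence median at -0.15. To set the lists side by side in each library, the log2 CPM of every tested gene was centred on its mean over the 8 libraries, and the median of a list was taken as its score. The activation scores were -0.52, -0.36, 0.014 and 0.0089 in PiZ/Chop-/- libraries 1 to 4, against 0.44, 0.42, 0.21 and -0.014 in PiZ libraries 1 to 4. The quiescence scores were -0.17, -0.25, 0.29 and -0.084 in PiZ/Chop-/- libraries 1 to 4, against 0.23, 0.16, 0.055 and -0.18 in PiZ libraries 1 to 4. Both sets of scores overlapped between the groups, and neither list held a gene past the adjusted threshold. For the fibrillar collagens alone the scores were -1.03, -0.66, 0.04 and -0.0032 in PiZ/Chop-/- libraries 1 to 4, against 0.37, 0.59, 0.65 and 0.083 in PiZ libraries 1 to 4. There every PiZ/Chop-/- library was below every PiZ library, PiZ/Chop-/- libraries 3 and 4 lying close to PiZ library 4, and the spread within PiZ/Chop-/- was wide. The other collagens of the set had scores of -0.81, -0.30, -0.28 and 0.079 in PiZ/Chop-/- libraries 1 to 4, against 0.26, 0.47, 0.53 and 0.14 in PiZ libraries 1 to 4, which did not overlap either. Their summed levels did overlap, at 104 to 146 CPM in PiZ/Chop-/- libraries and 144 to 192 CPM in PiZ libraries. Those of the fibrillar collagens did not, at 38.1 to 95.3 CPM in PiZ/Chop-/- libraries and 98.4 to 137 CPM in PiZ libraries. The difference between the lists was not tested.

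**Figure D4:**
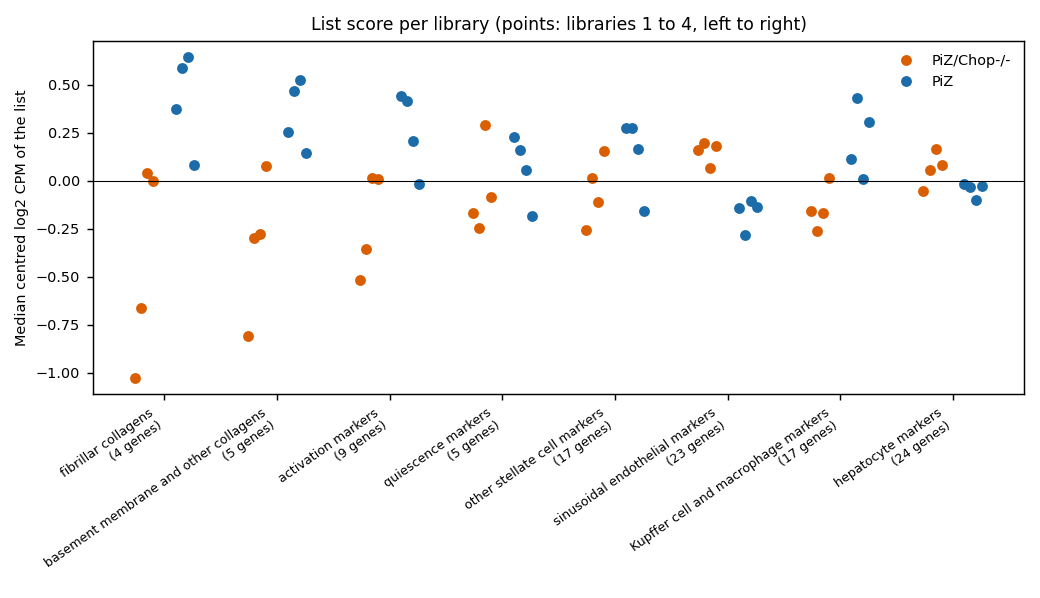
Score of 8 gene lists (vertical axis, median centred log2 CPM) in each PiZ/Chop-/- library (orange, left) and PiZ library (blue, right). Scores of both collagen lists shown, which hold only genes of the set, and of the endothelial list do not overlap between the groups. The collagen scores lie lower and the endothelial scores higher in PiZ/Chop-/-. The list of 33 further collagen genes, not shown, had overlapping scores, with 5 of its 6 tested genes above 0. They were -0.13 to 0.36 in PiZ/Chop-/- libraries and -0.33 to 0.33 in PiZ libraries. Activation, quiescence, other stellate, Kupffer cell and hepatocyte scores overlap. The activation list includes the 4 tested fibrillar collagen genes.

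The 21 genes of the set with too few reads held 8 counts (Timp1) to 73 counts (Tgfbr1) each over the 8 libraries. Summed over the 21, they came to 28.3, 31.0, 40.2 and 43.3 CPM in PiZ/Chop-/- libraries 1 to 4, against 43.1, 52.0, 57.6 and 44.6 CPM in PiZ libraries 1 to 4. PiZ/Chop-/- libraries 1 and 2 were again the lowest, and PiZ/Chop-/- library 4 and PiZ library 1 overlapped. The mean CPM was lower in PiZ/Chop-/- for 20 of the 21, values that rest on few reads per library and were not tested. Of all 5032 untested genes with totals in the same range the mean was lower in 51.5%. An opposite-strand gene is annotated over the last 1000 bases of 6 of the 49 genes, of which Col4a1, Lrat and Timp3 were tested. The labels give no strand setting for the counting, so reads of such a partner may be counted with them.

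In lists of related genes, the value given with a name is its log2 fold change, a value in parentheses after a fit is the adjusted p there, and the shares with an unadjusted p below 0.05 stand against 13.1% of all tested genes. Of 26 genes for collagen-modifying enzymes and export factors 15 were tested, 12 were below 0 (median -0.23), 4 had an unadjusted p below 0.05, all lower in PiZ/Chop-/-, and none passed. P3h1, a prolyl 3-hydroxylase, had -0.86 (SE 0.32, adjusted p = 0.262), and Adamts2, which trims the amino-terminal propeptide of fibrillar procollagen, -0.77 (SE 0.30, adjusted p = 0.30). Of 33 further collagen genes 6 were tested, 1 was below 0 (median 0.33), 3 had an unadjusted p below 0.05 (1 lower and 2 higher) and none passed. Col16a1 had -1.15 (SE 0.35, adjusted p = 0.168), with 2.79 to 6.06 CPM in PiZ/Chop-/- libraries and 9.23 to 13.3 CPM in PiZ libraries and no overlap, while Col27a1 had 1.48 (SE 0.47, adjusted p = 0.185). Of 48 laminins, nidogens and other glycoproteins 16 were tested, 10 were below 0 (median -0.12), 4 had an unadjusted p below 0.05 (3 lower and 1 higher) and none passed. Lama4, a laminin chain of vessel basement membrane, had 1.40 (SE 0.39, adjusted p = 0.118), all PiZ/Chop-/- libraries being above all PiZ libraries, and passed in the unfiltered fit (0.0383). Smoc2, a calcium-binding matrix protein, stood at 0, 3.45, 4.96 and 3.26 CPM in PiZ/Chop-/- libraries 1 to 4, against 24.6, 5.83, 9.97 and 28 CPM in PiZ libraries 1 to 4, with PiZ libraries 1 and 4 far above the rest. Its value of -2.53 (SE 0.68, adjusted p = 0.13) became -1.46 (adjusted p = 0.398) without these 2 libraries, and it passed with DESeq2 (0.00889) and in the unfiltered fit (1.19e-06).

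Of 41 further genes of TGF-beta, activin and SMAD signalling 23 were tested, 10 were below 0 and 13 above (median 0.05), 5 had an unadjusted p below 0.05 (3 lower and 2 higher), and none passed. Inhba, the activin A subunit, stood at 15.8, 26.4, 30.8 and 15.4 CPM in PiZ/Chop-/- libraries 1 to 4, against 6.15, 12.6, 8.04 and 4.75 CPM in PiZ libraries 1 to 4, with no overlap. With a log2 fold change of 1.47 ± 0.35 (SE), Inhba had an edgeR adjusted p of 0.0593. It was past the threshold with DESeq2 (at an adjusted p of 0.0193), with no filter on low counts (0.0014), without PiZ library 2 (0.0361) and with the replicate number as a block (0.0329). Acvr2b, an activin receptor, had 1.73 (SE 0.49, adjusted p = 0.126), with PiZ/Chop-/- library 2 low, and passed without that library (0.023) and in the unfiltered fit (0.0137). Of 35 further matrix proteases and inhibitors 7 were tested, 4 were below 0 (median -0.11), none had an unadjusted p below 0.05 and none passed, Mmp19 having -0.25 and Mmp15 0.22. Mmp15 had -0.037 without PiZ libraries 1 and 4.

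Other markers of stellate cells were looked at beside the 49 genes. Of 27 further markers 17 were tested, 9 were below 0 (median -0.029), 3 had an unadjusted p below 0.05 (all lower) and none passed, and summed levels overlapped at 525 to 560.4 CPM in PiZ/Chop-/- libraries and 519 to 674 CPM in PiZ libraries. Bco1, which cleaves beta-carotene, stood at 8.83, 5.17, 13.4 and 3.26 CPM in PiZ/Chop-/- libraries 1 to 4, against 18.5, 23.8, 30.9 and 7.59 CPM in PiZ libraries 1 to 4. PiZ library 4 lay within the range of the PiZ/Chop-/- libraries. The log2 fold change of Bco1 was -1.40 ± 0.45 (SE), and its adjusted p by edgeR 0.199. Bco1 and Lrat had log2 fold changes below 0 in each of the 19 alternative fits. That is common in these fits, which share libraries: of 45 genes followed only 7 turned sign in any of them. Bco1 passed in the unfiltered fit, at an adjusted p of 0.00437, without PiZ library 4 (0.0372) and without PiZ libraries 1 and 4 (0.0396). PiZ libraries 4 and 1 were the lowest of their group for Bco1, so leaving them out widens the difference by itself.

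Summed levels of 4 of the other cell type lists did not overlap between the groups (endothelial, Kupffer cell, portal fibroblast, and fat and muscle markers). The fat and muscle sums were all but tied at the edge, and how often sums of unrelated genes separate was not worked out. The part of these lists in the values above was not tested. By the list score used above, the Kupffer cell and portal fibroblast lists did overlap. Values beside gene names are log2 fold changes, and those in parentheses after a fit are adjusted p. The 24 measured sinusoidal endothelial markers summed to 957 to 1068 CPM in PiZ/Chop-/- libraries and 791 to 894 CPM in PiZ libraries, with no overlap. Of them 23 were tested, 16 were above 0 (median 0.34), 7 had an unadjusted p below 0.05 (1 lower and 6 higher), and none passed, Ushbp1 having 1.14 and Dnase1l3 0.66. The 21 Kupffer cell and macrophage markers summed to 985 to 1215 CPM in PiZ/Chop-/- libraries and 1257 to 1795 CPM in PiZ libraries, with no overlap. Of them 17 were tested and 14 were below 0 (median -0.33), 6 with an unadjusted p below 0.05 (all lower) and none past the threshold. Ctss had -0.75 and Cd5l -0.71, and Cd5l passed in the unfiltered fit (0.0467). Cd5l alone averaged 317 CPM in PiZ/Chop-/- and 520 CPM in PiZ libraries, where the sum of the list averaged 1130 and 1501 CPM. The 17 portal fibroblast and mesothelial markers summed to 70 to 81.6 CPM in PiZ/Chop-/- libraries and 101 to 109 CPM in PiZ libraries, with no overlap. Of them 6 were tested and 4 were below 0 (median -0.48), 2 with an unadjusted p below 0.05 (both lower), and the other 11 were too low to test. Gsn had -1.26. Ly6a had -1.10 and passed in the unfiltered fit (0.0106) and without PiZ library 1 (0.0398). Ly6a alone averaged 15.3 CPM in PiZ/Chop-/- and 32.6 CPM in PiZ libraries, where the sum of the list averaged 73.8 and 105.5 CPM. Almost all of the smooth muscle sum was Cald1 (495 to 912 CPM in PiZ/Chop-/- libraries and 580.4 to 854 CPM in PiZ libraries) and Mylk (235 to 341 CPM in PiZ/Chop-/- libraries and 189 to 243 CPM in PiZ libraries), genes that other cells express too. The list summed to 786 to 1169 CPM in PiZ/Chop-/- libraries and 795 to 1111 CPM in PiZ libraries. Of 14 (Des among them), 3 had no reads in any library and 3 were tested: Mylk (0.36), Cald1 (-0.082) and Tpm2 (-0.035). Cholangiocyte markers summed to 237 to 569.6 CPM in PiZ/Chop-/- libraries and 273 to 403 CPM in PiZ libraries, mostly Cdh1 (183 to 499.9 CPM in PiZ/Chop-/- libraries and 213 to 304 CPM in PiZ libraries), with 6 of 16 tested (median 0.013), 2 with an unadjusted p below 0.05 (both lower). Spp1 had -0.89. Prom1 had -2.28 (SE 0.58, adjusted p = 0.086), and it passed with DESeq2 (0.0276), in the unfiltered fit (2.27e-04) and without PiZ/Chop-/- library 4 (-3.10, adjusted p = 0.0422). Fat and skeletal muscle markers summed to 9.2 to 11.645 CPM in PiZ/Chop-/- libraries and 11.659 to 28.3 CPM in PiZ libraries, nearly a tie, with 1 of 11 tested (Fabp4, -0.87). Of the hepatocyte list all 24 were tested, 11 below 0 (median 0.039), 4 with an unadjusted p below 0.05 (2 lower and 2 higher), with Ahsg at -0.50 and Apoa1 at 0.49.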

How the data were processed

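The authors deposited 1 column of whole-number read counts for each library, headed as raw, per the file headers; the submitters' processing notes name STAR, HTSeq and mm10. Tool versions, annotation, strand setting and any duplicate removal are not stated there. Per the labels' protocols, libraries came from QuantSeq 3′ kits with 75-base single-end reads. Symbols and positions came from GENCODE M21 (mm10); Ctgf is Ccn2 there.

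With edgeR 4.0.16 (R 4.3.3), filterByExpr by group (minimum count 10), TMM scaling and a robust quasi-likelihood fit tested PiZ/Chop-/- against PiZ over 8669 genes, with no covariate. List scores use log2 CPM with a prior count of 2. SE is the log2 fold change divided by the square root of F. The fit was tested on simulated data. Alternatives used other scalings, DESeq2 1.42.0, limma-voom (limma 3.58.1), other filters, a replicate block and libraries left out.

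The members, gene lists and tests were chosen with earlier results of these data known. Named members were the 2 tested genes of lowest p in each role group (14) and 16 fixed genes, 26 in all since some are in both; further members were named for completeness. From each other list the 2 genes of lowest p were named, apart from 1 gene that is not reported here. No pair of libraries agreed within sampling noise (chi-square per degree of freedom 4.58 to 21.7). Promoters are RefSeq's (GRCm38.p6).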

Additional observations from a re-analysis of the deposited data

Results flagged for a closer look

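Of 52 groups of 4 libraries looked at (26 genes in 2 groups), 1 held a library far from the others, where chance gives about 1 in 20. Timp1 stood at 0.932 CPM in PiZ/Chop-/- library 4 and at 0 in the other 3 PiZ/Chop-/- libraries. The value rests on 2 reads, and with the other 3 at 0 any read at all would have met the rule, so it says little of this library.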

How the results depend on the processing

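The number of genes of the set past the adjusted threshold was 0 with all libraries and 1 with DESeq2, with no filter on low counts and without PiZ libraries 1 and 4 together, and ran from 0 to 1 when single libraries were left out. The gene was Col1a1, except without PiZ libraries 1 and 4, where it was Col4a1. For Col4a1 these were the lowest PiZ libraries, so that fit widens its difference by itself. The number with an unadjusted p below 0.05 ran from 2 to 8 when single libraries were left out, with 28 to 30 genes of the set tested. It was 7 of 28 with all libraries. The median log2 fold change of the tested genes ran from -0.46 to -0.25 in those fits (activation markers -0.54 to -0.19, quiescence markers -0.39 to -0.15), and was -0.50 without PiZ libraries 1 and 4. With the replicate number as a block (replicate block) it was -0.33, 0 genes of the set passed and Inhba was the single named gene whose call changed. Over all genes tested 89 passed with all libraries, 209 with DESeq2, 357 with no filter on low counts, 76 with the block and 46 to 169 when single libraries were left out. Same-numbered libraries did not deviate together (correlations of -0.051 to 0.049). A weak shared effect could be missed this way, and whether the numbers stand for pairs is not in the labels. Of 45 genes followed through these fits, 7 turned sign in some fit, none of them past the threshold. With Tgfbr2 this was seen with RLE scaling (0.0020), upper quartile scaling (0.0014), DESeq2 (0.0024), no filter (0.0050) and the 20 most abundant genes left out (0.0095), and in leave-one-out fits (-0.35 to 0.25). Without PiZ libraries 1 and 4 the values were -0.044 for Ctgf, -0.037 for Mmp15 and 0.070 for Reln. Leave-one-out fits ran from -0.24 to 0.051 for Cald1, -0.21 to 0.39 for Ctgf, -0.018 to 0.17 for Fn1 and -0.19 to 0.36 for Serpinh1. The cause of these changes was not tested. At this depth 21 of the 49 genes could not be tested.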
